A study of Mus musculus with 4 samples.

Results

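The genes examined are 8 genes of cholesterol synthesis and its control, Hmgcs1, Idi1, Fdft1, Sqle, Lss, Cyp51, Insig1 and Srebf2, in mouse embryonic fibroblasts that lack Mll1. They were chosen by gene symbol, as all array features that the platform annotation assigns to a single symbol among the 8. This gave 19 features of 8 genes, out of 19087 genes with such a feature on the array. A further feature carried 4 symbols, Srebf2 among them, and was left out. RNA from Mll1-/- fibroblasts was hybridised together with RNA from wild-type (Mll1+/+) fibroblasts on 4 two-colour arrays, which form a single group. Dyes were swapped, with Mll1-/- RNA in Cy5 on arrays 1 and 3 but in Cy3 on the others. Both genotypes are described as embryonic fibroblast cell lines grown in medium with foetal bovine serum, and the labels give neither the number of embryos or lines nor their age. A difference between genotypes and a difference between lines cannot be told apart. Mll1, now called Kmt2a, encodes a histone methyltransferase that acts on lysine 4 of histone H3.

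Cholesterol is built from acetyl-CoA through mevalonate, farnesyl diphosphate, squalene and lanosterol. The transcription factor SREBP-2, encoded by Srebf2, is known to switch on nearly all enzymes of this route when sterols in the endoplasmic reticulum are low. Insig proteins hold SREBP-2 and its escort protein Scap in the endoplasmic reticulum when sterols are plentiful, and fibroblasts in culture can also take up cholesterol from serum lipoproteins.

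RefSeq promoters of build GRCm38.p6 were at hand for 6 of the 8 genes, and the 250 bases upstream of the annotated start were searched on both strands. The motifs were the core of the sterol regulatory element, TCACNCCA, the CCAAT box, CCAAT, and the GC box, GGGCGG. The promoters below include Hmgcs1, which held a sterol element core and whose transcript fell. Srebf2 encodes the factor itself and held the core without a call. Idi1 and Cyp51 are enzymes without that core and without a call. Fdft1 and Sqle, whose transcripts also fell, were the genes without a promoter at hand. Whether the core goes with a fall was therefore not tested. Capitals mark the motif matches on either strand, and no matches of different motifs overlapped in these promoters.
Hmgcs1, chr13:119690101-119690350, plus strand: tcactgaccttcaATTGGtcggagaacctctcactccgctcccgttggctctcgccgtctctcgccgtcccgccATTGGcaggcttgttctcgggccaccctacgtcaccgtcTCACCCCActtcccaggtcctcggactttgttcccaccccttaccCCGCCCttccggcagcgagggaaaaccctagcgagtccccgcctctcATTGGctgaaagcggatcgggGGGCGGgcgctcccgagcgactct
Srebf2, chr15:82147019-82147268, plus strand: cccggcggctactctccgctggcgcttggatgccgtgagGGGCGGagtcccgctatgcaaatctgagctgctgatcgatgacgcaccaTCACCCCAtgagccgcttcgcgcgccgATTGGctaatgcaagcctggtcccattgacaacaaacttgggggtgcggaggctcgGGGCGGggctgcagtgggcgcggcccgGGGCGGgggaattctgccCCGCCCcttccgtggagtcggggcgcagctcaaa
Idi1, chr13:8885356-8885605, plus strand: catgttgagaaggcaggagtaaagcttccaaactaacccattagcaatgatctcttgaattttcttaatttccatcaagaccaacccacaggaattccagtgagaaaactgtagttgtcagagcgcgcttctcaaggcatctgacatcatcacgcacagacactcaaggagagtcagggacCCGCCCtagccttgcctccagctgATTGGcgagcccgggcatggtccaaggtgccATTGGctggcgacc
Cyp51, chr5:4104698-4104947, minus strand: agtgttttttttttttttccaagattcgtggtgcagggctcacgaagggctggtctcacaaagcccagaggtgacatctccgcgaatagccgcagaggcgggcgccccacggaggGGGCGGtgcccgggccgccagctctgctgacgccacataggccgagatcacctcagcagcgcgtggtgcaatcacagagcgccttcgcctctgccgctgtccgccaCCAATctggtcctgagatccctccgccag
The Hmgcs1 promoter held 1 sterol element core, starting 137 bases upstream of the gene start, with 3 CCAAT boxes and 2 GC boxes. The Srebf2 promoter held 1 core, starting 162 bases upstream, with 1 CCAAT box and 4 GC boxes. The core was not found in these windows of Idi1, Lss, Cyp51 and Insig1. Each of the 6 promoters held at least 1 CCAAT box and at least 1 GC box. Over 32851 promoter windows of the same length, 3.67% held the core, 33.9% a CCAAT box and 32.7% a GC box. A match describes letters in a window and not a bound site. Nor does a missing match show that a promoter lacks a sterol element. Elements with other letters, or outside these windows, were not searched for.

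Each array gives 1 deposited log2 ratio per feature. No source states its direction. Mll1-/- over wild type is the likely one: titles put the mutant first, and Kmt2a is then lower, at −1.24 ± 0.42 (SD, n = 4; limma, adjusted p = 0.0138). Should the direction be the opposite, rises become falls throughout and falls become rises. Of 45018 features, between 31603 and 37425 held a value on an array, and medians over all features ran from −0.02 to 0.03. Ratios of arrays with the same dye orientation correlated at 0.83 and 0.85 across 29054 features, and those of opposite orientation at 0.72 to 0.78. Signal strength behind a ratio could not be judged without intensities, and precision is limited by having 4 arrays. Of 14222 genes tested, 59.2% passed an adjusted p of 0.05 (limma), 29.1% as higher and 30.1% as lower in Mll1-/- cells. Whether each array had its own culture is not in the labels, so the p-values reflect array-to-array spread, possibly no more than technical.

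Among the 8 genes, those past the threshold were all lower in Mll1-/- fibroblasts, and the rest did not pass. Hmgcs1, Fdft1 and Sqle fell by less than 2-fold, and Idi1, Lss, Cyp51, Insig1 and Srebf2 did not pass the threshold. Thus 3 of 8 fell, a share near the 30.1% lower among all genes tested, and 0 of 8 rose, set against 29.1%. At an unadjusted p under 0.05 the limma counts were 4 lower and 0 higher, Lss being the additional gene. The median log2 ratio of the 8 genes was −0.12, beside −0.00074 over all genes tested, and their median size without regard to sign was 0.26, beside 0.34. None of the 8 genes reached a 2-fold difference when its features were averaged, a size that 14.4% of all genes tested both reached and passed.

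Hmgcs1 encodes the cytosolic synthase of an early step on the way to mevalonate. Its log2 ratios were −0.49, −0.43, −0.91 and −0.74 on arrays 1 to 4. All 4 arrays were below 0, and the mean of −0.64 ± 0.22 (SD, n = 4) is a 1.56-fold fall (limma, adjusted p = 0.0152). Of its features, number 37656 was even across arrays, from −0.62 to −0.76 (adjusted p = 0.00202, each feature tested by itself). Number 15090 ranged from −0.16 on array 2 to −1.10 on array 3 (adjusted p = 0.0657). Without array 4 the call was lost (adjusted p = 0.0612). Alternatives that combine arrays are written here as sums, 1+2 standing for arrays 1 and 2.

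Fdft1 encodes squalene synthase, which commits farnesyl diphosphate to sterols. Its log2 ratios were −0.51, −0.79, −1.004 and −0.47 on arrays 1 to 4. All arrays lay below 0, with a mean of −0.69 ± 0.25 (SD, n = 4), a 1.62-fold fall (limma, adjusted p = 0.0165). Each feature also passed by itself. Feature 19005 stood at −0.45 ± 0.17 (adjusted p = 0.0208). Feature 32683 stood at −0.94 ± 0.52 (adjusted p = 0.0424), with −1.32 and −1.44 on arrays 2 and 3 and −0.66 and −0.35 on arrays 1 and 4. The call of the gene was lost without array 2 (adjusted p = 0.0688), with 1+4 and 2+3 averaged (0.0553), and with 1+2 and 3+4 as a random block (0.140).

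Sqle encodes squalene epoxidase, which adds oxygen to squalene before ring closure. A single feature gave log2 ratios of −0.10, −0.57, −0.46 and −0.91 on arrays 1 to 4. All were below 0, and array 1 was close to it. The mean was −0.51 ± 0.34 (SD, n = 4), a 1.42-fold fall (limma, adjusted p = 0.0234). By dye orientation the means were −0.28 with Mll1-/- RNA in Cy5 and −0.74 with it in Cy3. The call was lost without array 3 (limma, adjusted p = 0.0747), without array 4 (0.0806) and with 1+2 and 3+4 averaged (0.0591). Without array 4, 1 of the 8 genes remained lower, Fdft1.

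Idi1 encodes the isomerase that interconverts the C5 isoprenoid units isopentenyl and dimethylallyl diphosphate. Its log2 ratios were 0.31 and 0.13 on arrays 1 and 2, and −0.13 and −0.31 on arrays 3 and 4. The signs split by array and not by dye. The mean was 0.0011 ± 0.27 (SD, n = 4; limma, adjusted p = 0.995), with a 95% interval from −0.37 to 0.37. Both of its features showed this order of arrays, with means of −0.07 and 0.07.

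**Figure D1:**
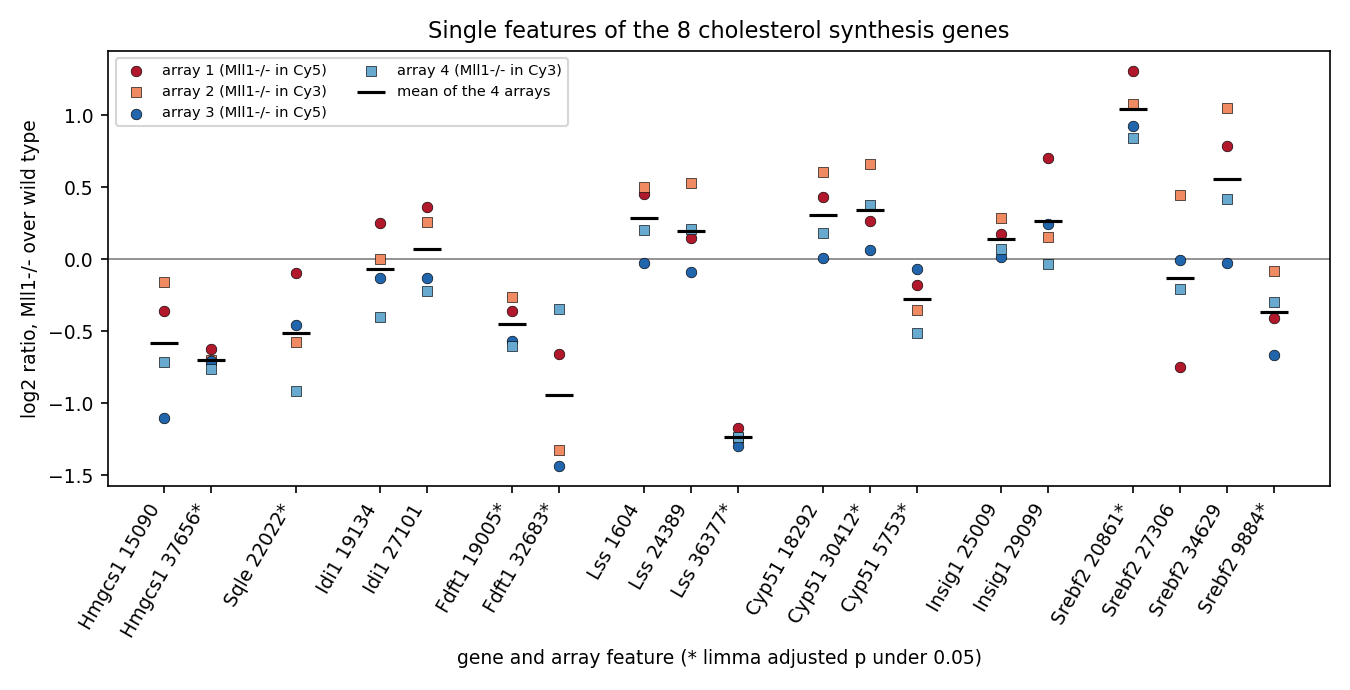
Log2 ratio, Mll1-/- over wild type (vertical axis), of each of the 19 features of the 8 genes (horizontal axis), with 1 point per array, circles where Mll1-/- RNA was in Cy5 and squares where it was in Cy3, and a black bar for the mean. Lss feature 36377 lies between −1.17 and −1.29 on all arrays while the other Lss features have means of 0.29 and 0.20, and the Srebf2 features run from −0.36 to 1.04.

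For Lss, Cyp51 and Srebf2, features of the same gene differed in sign, so their averages describe no single transcript measurement. Lss, the lanosterol synthase that closes the sterol rings, averaged −0.25 ± 0.17 (SD, n = 4; limma, adjusted p = 0.0617), with a 95% interval from −0.48 to −0.02. Feature 36377, assigned to a cDNA record outside RefSeq, read −1.17, −1.24, −1.29 and −1.24, a 2.36-fold fall with almost no spread (adjusted p = 0.000962). The pair of features assigned to the RefSeq transcript read 0.46, 0.50, −0.03 and 0.21 (adjusted p = 0.113), and 0.15, 0.53, −0.09 and 0.21 (adjusted p = 0.126). These were above 0 on 3 of 4 arrays and did not pass. With RefSeq features alone Lss was at 0.24, and with the median of its features at 0.19, so the sign of the gene's average turned. With 1+4 and 2+3 averaged, Lss instead passed as lower (−0.25, adjusted p = 0.0159).

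Cyp51 encodes the P450 enzyme that removes a methyl group from lanosterol. It averaged 0.13 ± 0.14 (SD, n = 4; limma, adjusted p = 0.228), with a 95% interval from −0.09 to 0.34. All 3 features are assigned to the same RefSeq transcript. Feature 30412 passed as higher, at 0.34 ± 0.25 (adjusted p = 0.0290), and feature 18292 stood at 0.31 ± 0.26 (0.107). Feature 5753 passed as lower, at −0.28 ± 0.20, with values from −0.07 to −0.51 (0.0202).

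Srebf2, the gene of SREBP-2, read 0.24, 0.62, 0.06 and 0.19 on arrays 1 to 4 when its 4 features were averaged. All were above 0, with a mean of 0.28 ± 0.24 (SD, n = 4; limma, adjusted p = 0.0847) and a 95% interval from −0.01 to 0.57. Feature 20861, assigned to a cDNA record outside RefSeq, read 1.31, 1.08, 0.93 and 0.85, a 2.06-fold rise (adjusted p = 0.00405). Feature 9884, also outside RefSeq, read −0.41, −0.08, −0.66 and −0.30 and passed as lower (adjusted p = 0.0238). The features assigned to the RefSeq transcript had means of 0.56 ± 0.47 and −0.13 ± 0.49 and did not pass (0.0893 and 0.606). Feature 27306 ranged from −0.75 on array 1 to 0.45 on array 2, and the arrays of this feature did not hold 1 sign.

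Insig1, which retains the SREBP escort Scap in the endoplasmic reticulum and is itself a known SREBP target, read 0.44, 0.22, 0.13 and 0.02. All were above 0, with a mean of 0.20 ± 0.18 (SD, n = 4; limma, adjusted p = 0.108) and a 95% interval from −0.03 to 0.44. Its features had means of 0.14 ± 0.12 and 0.27 ± 0.31, and neither passed (0.147 and 0.1005). With 1+4 and 2+3 averaged, both Insig1 (adjusted p = 0.0259) and Srebf2 (0.0421) passed as higher. Calls became more frequent over all genes tested as well under that averaging, with 4758 higher and 4914 lower in place of 4140 and 4275.

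Counted feature by feature, 7 of the 19 features passed as lower, 2 as higher and 10 did not pass, beside 29.7% lower and 29.9% higher (59.6% either way) among all 24012 features. Of the 19, 8 were below 0 on all arrays and 4 above 0 on all arrays. Among the 7 genes with at least 2 features, Cyp51 and Srebf2 had features that passed in opposite directions. Over the whole array this held for 328 of 5983 such genes, 5.48%.

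The 8 genes shared an order of arrays. The mean log2 ratio of arrays 1 and 2 was above that of arrays 3 and 4 for 8 of 8 genes, with differences from 0.09 for Fdft1 to 0.44 for Idi1 and a median of 0.28. Over all genes tested, 56.7% had this order, and the median difference was 0.03. The order was also common in the related lists. It held for 10 of the 13 other sterol synthesis genes tested (median difference 0.11) and 12 of 15 fatty acid synthesis genes (0.09). The genes' ratios were −0.46 on the first pair and −0.82 on the second for Hmgcs1, and −0.34 and −0.69 for Sqle. The labels do not name a batch or extract behind these pairs, and its part in the results was not tested. By dye orientation the genes split, with 3 of 8 higher where Mll1-/- RNA was in Cy5.

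**Figure D2:**
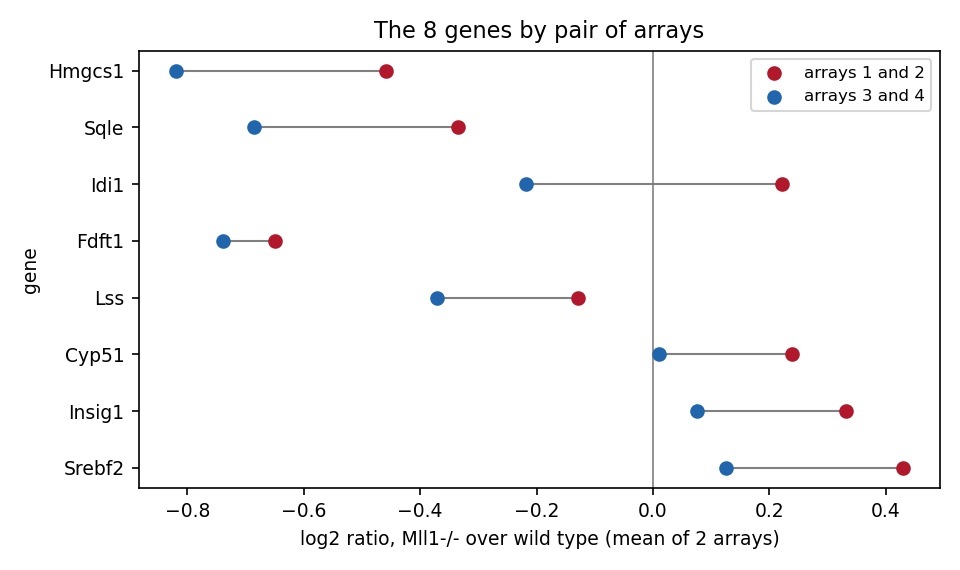
Mean log2 ratio, Mll1-/- over wild type (horizontal axis), of each of the 8 genes (vertical axis) on arrays 1 and 2 (red) and on arrays 3 and 4 (blue). The red point lies to the right of the blue point for 8 of 8 genes, and Idi1 changes sign between the pairs.

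By the root-mean-square difference over the 4 arrays, the nearest of 68 other genes of the sterol lists was Fnta for Cyp51 (0.0975), Pmvk for Lss (0.103) and Tm7sf2 for Insig1 (0.106) and for Idi1 (0.146). Srebf2 lay nearest Nus1 (0.143), Hmgcs1 nearest Npc2 (0.169), Sqle nearest Rnf139 (0.187) and Fdft1 nearest Nr1h3 (0.196). For Lss, Cyp51 and Srebf2 these distances use averages of features that differ in sign. Whether any of the distances is unusually small was not tested.

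Along the whole sterol synthesis route, calls went both ways. Counts for this and the lists that follow stand beside 29.1% higher and 30.1% lower among all genes tested. Of 22 genes listed for the whole route, 19 were tested, of which 6 rose and 5 fell, with a median log2 ratio of 0.08. Outside the 8 genes examined, 6 of 13 rose and 2 fell, with a median of 0.53. Whether these 13 differ as a group from the 8 was not tested. With 1+2 and 3+4 averaged, or as a random block, 3 of the 19 fell in place of 5. Without array 2, without array 3 and without array 4 the genes lower numbered 3, 3 and 2.

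In the mevalonate and farnesyl steps, 2 of 6 rose and 2 fell. Mvd, the decarboxylase that yields isopentenyl diphosphate, read 0.57, 0.63, 0.45 and 0.48, a 1.44-fold rise with little spread (limma, adjusted p = 0.00461). Fdps, the farnesyl diphosphate synthase, rose 1.44-fold (0.53 ± 0.14, adjusted p = 0.0101). Its call was lost without array 2 (0.0560), with 1+2 and 3+4 as a random block (0.0635) and with the middle feature alone (0.0616). Pmvk, which phosphorylates mevalonate phosphate, fell slightly (−0.21 ± 0.06, adjusted p = 0.0263), a call that was lost whichever array was left out (lowest adjusted p = 0.0879), with 1+2 and 3+4 averaged (0.130) and with these pairs as a random block (0.0622). Mvk, the kinase before it, stood at 0.05 ± 0.15 and did not pass.

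In the steps from lanosterol to cholesterol, 4 of 9 rose and 1 fell, with a median of 0.58. Dhcr7, the reductase of the last step of the Kandutsch-Russell route, read 0.97, 0.86, 0.65 and 0.58. All 4 arrays were above 0, with a mean of 0.76 ± 0.18, a 1.70-fold rise (limma, adjusted p = 0.00712). Hsd17b7, the ketoreductase of sterol demethylation, rose 1.62-fold (0.69 ± 0.08, adjusted p = 0.00278), and Sc5d, a sterol desaturase, rose 1.53-fold (0.61 ± 0.19, adjusted p = 0.00651).

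Nsdhl, the decarboxylating dehydrogenase of the same demethylation, rose 1.49-fold (0.58 ± 0.18, adjusted p = 0.0104). A further Nsdhl feature with values on 3 arrays read −1.99, −2.89 and 0.48 on arrays 1, 3 and 4, and with it included the call was lost (0.20, adjusted p = 0.197). Ebp, the sterol isomerase, was the exception in direction, with −0.35, −0.60, −0.41 and −0.53, a 1.39-fold fall (adjusted p = 0.00344). Msmo1, the methylsterol oxidase, averaged 0.78 ± 0.72 and did not pass (adjusted p = 0.103). Its feature outside RefSeq read 3.72 on array 3, while the remaining arrays gave −0.0034 to 1.17, and its RefSeq feature stood at 0.21 ± 0.24. Without array 1 Msmo1 passed, at 1.14 (adjusted p = 0.0258).

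**Figure D3:**
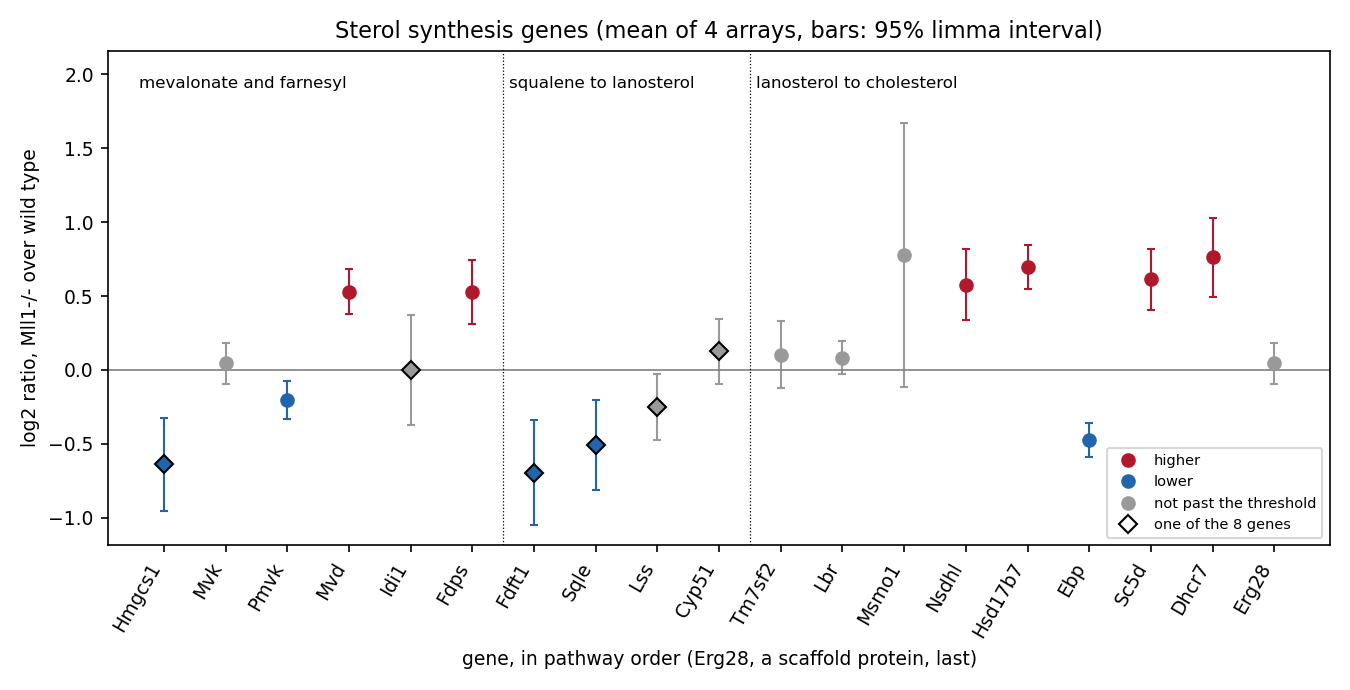
Log2 ratio, Mll1-/- over wild type (vertical axis), of 19 sterol synthesis genes in pathway order (horizontal axis), as the mean of 4 arrays with the 95% interval of the limma fit, coloured by call, with diamonds for those of the 8 genes that encode enzymes. Hmgcs1, Fdft1 and Sqle lie at −0.64, −0.69 and −0.51, and Nsdhl, Hsd17b7, Sc5d and Dhcr7 between 0.58 and 0.76.

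Of 7 genes tested in non-sterol branches that use the same isoprenoids, 2 rose and 1 fell, with a median of 0.06. Nus1, a subunit of the enzyme that makes dolichol precursors, rose 1.27-fold (0.35 ± 0.17, adjusted p = 0.0104), a call lost without array 1, 2 or 4 (up to 0.0646) and also with 1+2 and 3+4 averaged (0.0550). Fntb, the farnesyltransferase subunit, passed as higher on average (0.32 ± 0.13, adjusted p = 0.0275), but its features read 0.99 ± 0.21 and −0.35 ± 0.30 and each passed in its own direction. The averaged call was also lost without array 1, 2 or 3 (up to 0.115), with 1+2 and 3+4 averaged (0.0819) and as a random block (0.0670). Ggps1, which makes geranylgeranyl diphosphate, fell by 0.14 on the log2 scale (adjusted p = 0.0412), a call lost in 8 of 15 alternatives (highest adjusted p = 0.223).

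Among regulators of SREBP processing, 11 were tested, of which 3 fell and 1 rose. Scap, the escort that carries SREBP to the Golgi, read −0.54, −0.53, −0.47 and −0.45, close together on all arrays, a 1.41-fold fall (limma, adjusted p = 0.00348). Insig2, the paralogue of Insig1, fell 1.27-fold (−0.34 ± 0.15, adjusted p = 0.0202). Rnf139, a ubiquitin ligase of the endoplasmic reticulum, fell 1.29-fold (−0.37 ± 0.24, adjusted p = 0.0306). Marchf6, another such ligase, which is known to mark squalene epoxidase for degradation, rose 1.18-fold (0.24 ± 0.05, adjusted p = 0.0159).

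The call of Scap held in all 15 alternatives, and the other 3 did not. That of Marchf6 was lost whichever array was left out (highest adjusted p = 0.0966) and that of Insig2 and Rnf139 without array 1, 3 or 4 (highest 0.0901 and 0.116). All 3 were lost with 1+2 and 3+4 averaged (0.0938, 0.0707 and 0.0731), and Rnf139 also with these pairs as a random block (0.0909). Srebf1, which encodes SREBP-1, stood at 0.12 ± 0.10 and did not pass (adjusted p = 0.0687).

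Genes of uptake and intracellular transport showed 3 rises and 3 falls among 10 tested. Mylip, a ubiquitin ligase known as a target of the sterol sensors LXR, read −2.59, −2.59, −2.57 and −3.00, a 6.44-fold fall (limma, adjusted p = 0.000878). Lipa, the lysosomal lipase that frees cholesterol from lipoprotein esters, fell 2.59-fold (−1.37 ± 0.08, adjusted p = 0.000941). Npc2, which carries that cholesterol inside the lysosome, fell to a lesser extent (−0.59 ± 0.10, adjusted p = 0.00232), while Npc1, its membrane partner, rose 1.41-fold (0.50 ± 0.08, adjusted p = 0.00363). The lipoprotein receptor gene Vldlr rose 1.49-fold (0.58 ± 0.13, adjusted p = 0.00672) and Stard4, a cytosolic sterol carrier, rose 1.40-fold (0.48 ± 0.12, adjusted p = 0.00843).

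All 7 genes tested for efflux, storage and oxysterols passed, with 4 rises and 3 falls, beside 59.2% passing among all genes tested. Cyp7b1, Nr1h2 and Soat1 were not tested. Ch25h, which makes an oxysterol known to block SREBP processing, read 5.67, 6.14, 6.21 and 5.68, a 60.6-fold rise (limma, adjusted p = 0.000571). Abcg1, a sterol exporter, read 4.59, 4.87, 4.92 and 5.02, a 28.8-fold rise (adjusted p = 0.000426). Each rests on a single feature, and the signal of either channel is unknown. Many other calls named here also rest on a single tested feature, among them Kmt2a, Mvd, Ebp, Nus1, Scap, Mylip, Lipa, Npc1 and Npc2. The same holds for Abca1, Cyp27a1, Nr1h3, Nceh1, Scd1, Scd2, Gpam, Mid1ip1 and Acacb, the last with a feature outside RefSeq.

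Abca1, the exporter that loads apolipoprotein A-I, fell 2.31-fold (−1.21 ± 0.46, adjusted p = 0.0171, and 0.0616 without array 2). Cyp27a1, a sterol hydroxylase, fell 2.44-fold (−1.29 ± 0.16, adjusted p = 0.00197). Nr1h3, which encodes the sterol sensor LXR alpha, fell 1.54-fold (−0.62 ± 0.28, adjusted p = 0.0280), a call lost without array 1 (0.0861), without array 3 (0.0980), with 1+4 and 2+3 averaged (0.0601) and with the other pairs as a random block (0.165). Apoe, the lipid-carrying apolipoprotein, rose 1.59-fold (0.67 ± 0.15, adjusted p = 0.00274) and Nceh1, a cholesteryl ester hydrolase, rose 1.74-fold (0.80 ± 0.13, adjusted p = 0.00133).

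Fatty acid synthesis genes, known targets of SREBP-1, rose in 8 of 15 cases and fell in 3, with a median of 0.36. Scd1, the stearoyl-CoA desaturase, read 2.51, 2.13, 2.22 and 1.82, a 4.50-fold rise (limma, adjusted p = 0.00118). Gpam, the first acyltransferase of triglyceride synthesis, rose 2.15-fold (1.11 ± 0.31, adjusted p = 0.00397) and Mid1ip1, an activator of acetyl-CoA carboxylase, rose 1.52-fold (0.61 ± 0.25, adjusted p = 0.00536). Scd2 rose 1.56-fold (0.64 ± 0.26, adjusted p = 0.0217), a call lost without array 1 (0.0687), without array 2 (0.0727) and with 1+2 and 3+4 averaged (0.0519).

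Lpin1, a phosphatidate phosphatase, fell 3.08-fold (−1.62 ± 0.31, adjusted p = 0.00439) with all 4 of its features at −0.98 or below on each array. Acacb, the mitochondrial acetyl-CoA carboxylase, fell 3.05-fold (−1.61 ± 0.25, adjusted p = 0.00162). Me1, the malic enzyme, fell by 0.16 on the log2 scale (adjusted p = 0.0457), a call lost in 9 of 15 alternatives (highest adjusted p = 0.205).

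**Figure D4:**
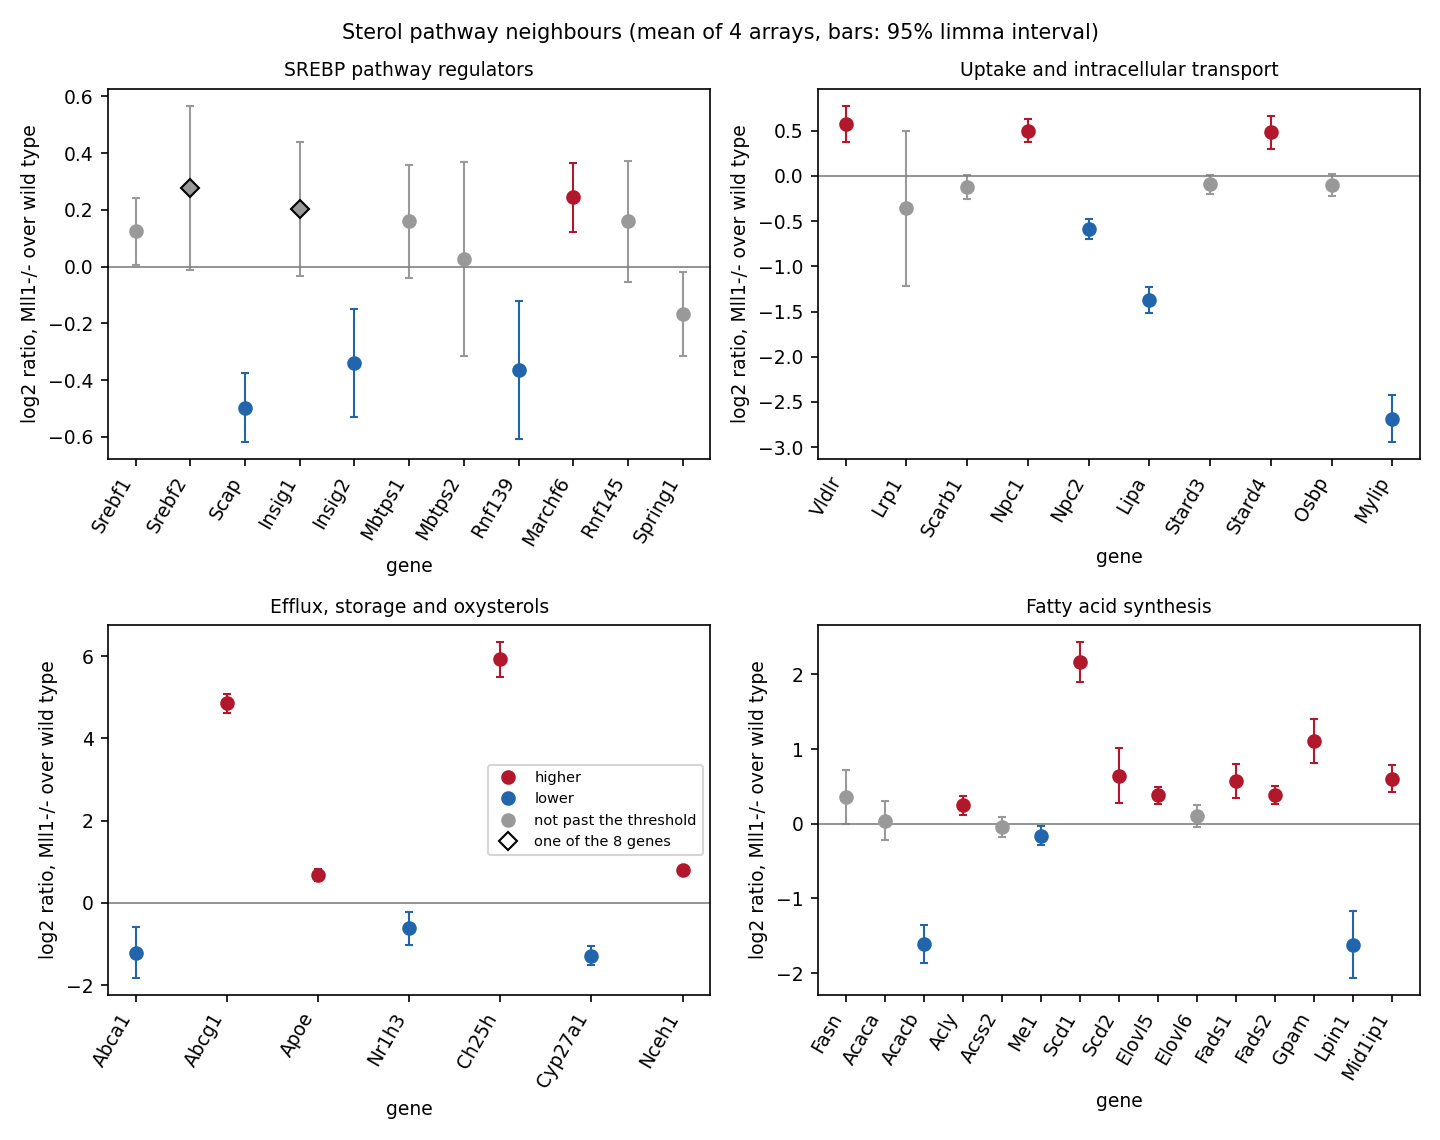
Log2 ratio, Mll1-/- over wild type (vertical axes, each panel with its own range), of the genes of 4 lists around the sterol pathway (horizontal axes), as the mean of 4 arrays with the 95% interval of the limma fit, coloured by call. Insig1 and Srebf2 (diamonds) have intervals that reach 0, and Ch25h (5.92) and Abcg1 (4.85) lie far above the other genes shown.

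Markers of cell types moved as well, and on ratio arrays they show differences and not levels. Of 9 fibroblast markers tested, 5 rose and 3 fell, from −2.21 for Dcn to 2.27 for Col3a1. Of 4 adipocyte markers 0 rose and 3 fell (limma, also 0 and 3 at an unadjusted p under 0.05), from −4.29 for Fabp4 to −0.39 for Cebpa. Of 4 endothelial markers 1 rose and 2 fell. The call of Cdh5, 1 of these 2, rests on the dye term, since its ratios were 0.42 and 0.46 with Mll1-/- RNA in Cy5 and −1.35 and −1.09 with it in Cy3. Of 3 epithelial markers 0 passed (limma, 1 higher at an unadjusted p under 0.05). The leukocyte marker Ptprc, at 0.57 ± 1.55, was the 1 tested of 6 for macrophages and blood, and 0 passed (limma, 0 also at an unadjusted p under 0.05). Features of Cdh1, Epcam, Pecam1, Adipoq, Itgam and Adgre1, and of the fibroblast marker Thy1, were blank on at least 1 array each. In RNA from whole cultures, fewer cells of a type and less RNA per cell cannot be told apart, and the part of these differences in the sterol gene results was not tested.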

How the data were processed

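Per the labels' protocols, total RNA was labelled by Agilent's two-colour Quick Amp method. Scanning output came from Agilent Feature Extraction 10.1.1, according to the submitters' processing notes. The deposited values were taken as log2 ratios computed by the authors. How background and dyes were corrected, the log base, the direction and what a blank means: not given in the sources used here. A base of 2 was chosen because the widest values, from −13.1 to 14.7, would exceed a scanner's range on other bases. All arrays correlated positively although dyes were swapped, so ratios had already been turned one way.

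Of 45018 features, 33653 had 1 gene symbol in the platform annotation, 56 several and 11309 none. Features with 1 symbol and a value on all 4 arrays (24012) were averaged per gene (14222 genes). The test was lmFit and eBayes of limma 3.58.1 (R 4.3.3) with a gene-specific dye term, leaving 2 residual degrees of freedom, and the Benjamini-Hochberg adjustment ran over all genes tested, with a threshold of 0.05. Errors are SDs over arrays. The fit was tested on simulated data. The members and lists were chosen with earlier results of these data known. Named are all 8 genes, 10 central pathway genes where measured, and in each of 8 pathway lists the genes past the threshold by at least 2-fold or otherwise up to 4 each way, with the nearest listed gene of each of the 8. Markers of 5 cell types were counted beside them. Filters on dim features could not be applied to ratios alone. The correlation of the random block was computed from the residual contrasts, because limma's own function needs more arrays. Alternatives covered the dye term, centring, scaling, the handling of features and blanks, the variance prior, pairs of arrays, and each array left out.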

Additional observations from a re-analysis of the deposited data

Results flagged for a closer look

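Mylip was the single result, among 46 named genes and 19 features of the 8 genes, with an array far from the others by Dixon's criterion for 4 values. Its log2 ratio was −3.00 on array 4, while the other 3 arrays gave −2.59 to −2.57. Chance gives a gap that meets this criterion in about 1 of 20 groups of 4.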

How the results depend on the processing

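For the 8 genes, the count lower was 3 in 10 of 15 alternatives, 2 in 4 and 1 without array 4, and with 1+4 and 2+3 averaged the 3 held Lss (adjusted p = 0.0159) in place of Fdft1 (0.0553) (range 1 to 3 when leaving out 1 array, with 0 higher each time), and 2 were higher in place of 0 with 1+4 and 2+3 averaged. Of the 19 sterol synthesis genes, 3 were lower in place of 5 with 1+2 and 3+4 averaged or as a random block, and 2 to 4 when leaving out 1 array. Over all genes tested, 2690 were higher in place of 4140 with 1+2 and 3+4 averaged, and 2532 to 2860 when leaving out 1 array. Signs turned for Idi1, at −0.0027 with centred arrays, −0.0036 with scaled arrays, −0.067 for its middle feature and −0.11 to 0.11 when leaving out 1 array, for Lss at 0.19, 0.20 and 0.24 with the median of features, the middle feature and RefSeq features alone, for Srebf2 (−0.13) and for Fntb (−0.35) with the middle feature. The choice of RefSeq features was added after seeing the data. Of 689 recomputed values of 46 named genes, 610 kept direction and side of the threshold, 65 lost the call, 4 gained it and 10 turned. The cause was not tested. The counts for regulators ran from 0 to 5 higher and 1 to 4 lower. The correlation within arrays 1 and 2, and 3 and 4, was estimated at 0.725. No paired analysis was possible because the arrays form a single group, so no replicate number is shared by 2 groups; each array itself sets Mll1-/- against wild-type RNA, and the array pairs above are groupings of arrays, not of samples. Without intensities, limits from signal over background could not be set.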
